A study of Homo sapiens with 6 samples.

Results

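Orphan and adhesion G protein-coupled receptors, together with the RGS proteins that shut G protein signals off, were described in MDA-MB-231 cells after panobinostat. Members were taken by gene name from the deposited count table: GPR followed by digits, names starting with GPRC or ADGR, and RGS followed by digits, leaving out antisense names. The rule gave 96 of the 30051 gene identifiers in the table, with 95 different names. Of these, 27 were adhesion receptors (ADGR), 4 carried GPRC names, 46 were GPR names with digits and 19 were RGS genes. No expression value entered this rule, although it was set with earlier results of these data known.

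MDA-MB-231 is an established human cell line from a triple-negative, claudin-low breast cancer, and panobinostat inhibits histone deacetylases, the enzymes that remove acetyl groups from histones and other proteins. The libraries were 3 from cells given 50 nM panobinostat for 24 h (replicates 1, 2 and 4) and 3 from cells given the solvent DMSO for 24 h (replicates 1, 2 and 3). The culture medium was DMEM/F-12 with 10% serum in both groups, and all 6 libraries came from this single line. The series asked how gene expression adapts to the drug, and its design text says that each condition was repeated independently.

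A G protein-coupled receptor spans the membrane several times and, when active, makes a G protein α subunit exchange GDP for GTP. Adhesion receptors add a long extracellular part that is cut next to the membrane and that binds matrix or proteins on neighbouring cells, while orphan receptors are those whose ligand was unknown when they were named. RGS proteins speed GTP hydrolysis on α subunits of the Gi and Gq families and so shorten the signal, each subfamily with its own choice of α subunits and partners.

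Promoters of 4 members are shown because these are the largest called rises and falls among members of at least 10 CPM (counts scaled to a library of 1000000) in one group whose promoter is in the RefSeq table used. Each is the 250 bases before the gene's RefSeq start on GRCh38.p14, 5′ to 3′ on the gene's own strand. Capitals mark GGGCGG, the core of a GC box, or CCAAT, on either strand (so CCGCCC and ATTGG also count). ADGRB2 (chr1:31764341-31764590, minus strand) and RGS9 (chr17:65137120-65137369, plus strand) rose after panobinostat, and GPR39 (chr2:132416555-132416804, plus strand) and ADGRA3 (chr4:22516067-22516316, minus strand) fell.
ADGRB2: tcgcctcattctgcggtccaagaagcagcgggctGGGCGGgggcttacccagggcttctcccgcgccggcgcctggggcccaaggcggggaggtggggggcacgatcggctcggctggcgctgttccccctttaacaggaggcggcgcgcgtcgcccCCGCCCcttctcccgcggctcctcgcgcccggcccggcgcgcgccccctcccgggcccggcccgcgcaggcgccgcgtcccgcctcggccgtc
RGS9: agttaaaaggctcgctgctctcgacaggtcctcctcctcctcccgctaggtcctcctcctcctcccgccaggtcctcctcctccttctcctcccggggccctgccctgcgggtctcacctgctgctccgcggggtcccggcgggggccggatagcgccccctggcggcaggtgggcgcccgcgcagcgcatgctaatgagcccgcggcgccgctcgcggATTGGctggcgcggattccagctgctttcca
GPR39: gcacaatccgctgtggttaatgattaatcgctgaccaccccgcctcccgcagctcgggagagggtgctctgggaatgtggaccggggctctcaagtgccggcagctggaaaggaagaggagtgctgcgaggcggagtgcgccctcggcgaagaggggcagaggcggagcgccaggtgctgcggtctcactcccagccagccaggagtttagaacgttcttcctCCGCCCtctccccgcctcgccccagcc
ADGRA3: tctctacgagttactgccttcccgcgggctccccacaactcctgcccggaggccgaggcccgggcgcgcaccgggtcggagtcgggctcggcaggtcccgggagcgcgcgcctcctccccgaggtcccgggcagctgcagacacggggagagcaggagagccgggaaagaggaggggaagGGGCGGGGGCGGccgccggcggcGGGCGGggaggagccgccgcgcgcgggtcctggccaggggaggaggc
The window of ADGRB2 held 2 GGGCGG, that of GPR39 held 1 and that of ADGRA3 held 3. The window of RGS9 held 1 CCAAT. All 4 windows were rich in G and C, with 79.6% in ADGRB2 and 71.6% in RGS9, against 66.0% in GPR39 and 78.0% in ADGRA3.

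Panobinostat libraries held 5389638 to 15106148 counts and DMSO libraries 6514568 to 11996519. Panobinostat replicate 4 stood apart from the other panobinostat libraries. Across genes, its log2 levels had a correlation of 0.9756 and 0.9738 with panobinostat replicates 1 and 2, whose correlation with each other was 0.994, and of 0.967 to 0.9684 with the DMSO libraries. Results are therefore given with and without it where it matters. VIM, CD44, ZEB1, AXL and CAV1, which mark the line, summed to between 5068 and 5149.6 CPM in panobinostat and between 5269.6 and 5359 CPM in DMSO, and VIM was the largest part, at a mean of 2861 CPM in panobinostat and 2559 CPM in DMSO. ZEB1, CAV1 and AXL fell, with log2 fold changes of −0.91, −0.65 and −0.34, CD44 was not called, and VIM had 0.16 (adjusted p = 0.0214, range over alternatives 8.2e-22 to 0.297, lost without any 1 library other than panobinostat replicate 4, by DESeq2's Wald test and with no filter). A set of 8 genes low in claudin-low lines summed to between 34.7 and 40.2 CPM in panobinostat and between 44.4 and 48.9 CPM in DMSO. Within it CLDN4 rose, with a log2 fold change of 1.64, EPCAM fell by 0.77 on the log2 scale, and GATA3 had −1.19, or −1.83 without panobinostat replicate 4 (adjusted p = 0.0295 with all libraries, range 2.29e-18 to 0.114, and the call lost without any 1 library other than panobinostat replicate 4). Markers of leukocytes, fibroblasts and endothelium (11 of 13 had a row) summed to between 93.4 and 149 CPM in panobinostat and between 35.3 and 37.7 CPM in DMSO. Of these, COL1A1, KDR and CD14 rose, with log2 fold changes of 2.13, 1.96 and 2.21, while the leukocyte marker PTPRC had 2 counts in panobinostat and 0 in DMSO, and the fibroblast marker DCN 1 count in panobinostat and 0 in DMSO. Their part in the results below was not tested. In such bulk libraries, fewer cells with a transcript and less transcript per cell cannot be told apart.

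More members rose than fell. Of the 96 members, 55 had enough counts to be tested. At an adjusted p under 0.05 (edgeR's quasi-likelihood test, adjusted by Benjamini-Hochberg over all 13341 genes tested), 23 of the 55 rose, 12 fell and 20 were not called. Over all genes tested, 58.9% were called, 30.2% higher and 28.6% lower, against 41.8% of tested members higher and 21.8% lower. At 2-fold or more, 16 members rose and 5 fell, where 10.9% of all tested genes rose and 4.66% fell that far. The median log2 fold change was 0.19 over tested members and 0.0 over all tested genes. The 3 panobinostat libraries did not overlap the 3 DMSO libraries in 36 of the 55 members, against 69.0% of all tested genes.

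The filter on low counts bears on these shares, because 8 of the 55 members passed it through their panobinostat level alone. Among the 47 members that also passed in DMSO, 18 rose (38.3%) and 12 fell (25.5%), against 27.6% and 31.1% of all such genes. The calls also varied with the level in DMSO. Of 8 tested members under 2 CPM in DMSO, 5 rose and 0 fell, where 58.9% of all genes at that level rose and 1.06% fell. Of 19 members from 2 to 10 CPM, 9 rose and 4 fell, where 28.8% of genes rose and 15.3% fell. Of 28 members at 10 CPM or more, 9 rose and 8 fell, where 27.2% of genes rose and 35.7% fell.

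**Figure D1:**
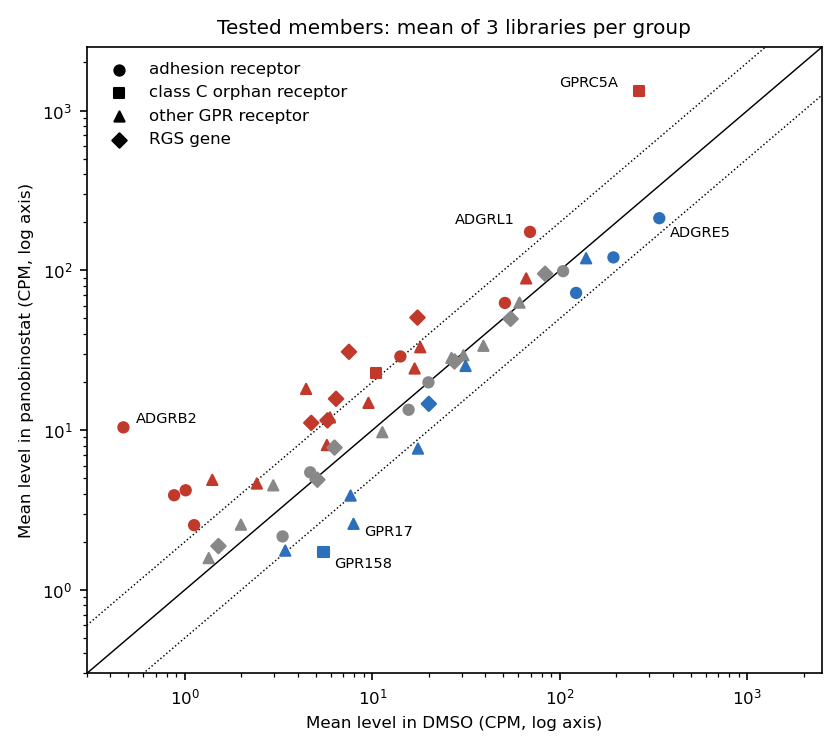
Mean level of 53 tested members in panobinostat (vertical, CPM, log axis) against DMSO (horizontal, CPM, log axis), 3 libraries per group. Red points were called higher, blue lower and grey not called; circles are adhesion receptors, squares class C orphans, triangles other GPR names and diamonds RGS genes. The solid line is equality and the dotted lines are 2-fold. GPRC5A stands highest in panobinostat at 1328 CPM against 263 CPM in DMSO, and ADGRB2 lies farthest above the 2-fold line.

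Panobinostat replicate 4 held smaller changes in nearly every called member. The median log2 ratio to the DMSO mean over the 23 members that rose was 1.32, 1.45 and 0.78 in panobinostat replicates 1, 2 and 4, and replicate 4 had the smallest ratio in 21 of the 23. Over the 12 members that fell, the medians were −0.93, −1.2 and −0.38, and replicate 4 had the smallest change in 12 of 12. Without it, all 35 calls stood in the same direction, and 28 members rose and 15 fell among all with a row. Because it held the smallest changes, calls that stand without it are no check on them. In the fit without replicate 4, 74.6% of all tested genes were called, 37.6% higher and 36.9% lower. Leaving out another single library gave as few as 19 members higher and 6 lower. Over all genes, such fits gave as few as 3106 higher and 2624 lower.

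**Figure D2:**
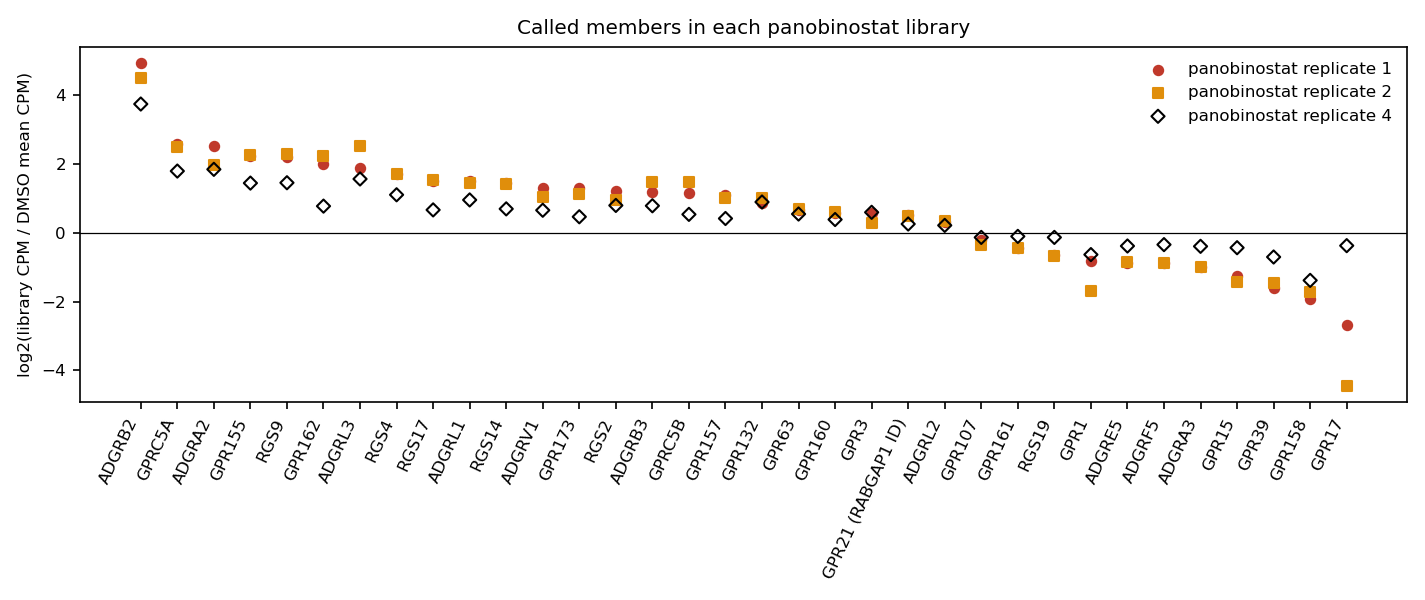
Log2 ratio of each panobinostat library to the mean of the 3 DMSO libraries (vertical, log2 of a CPM ratio) for 34 called members (horizontal, ordered by replicate 1). Filled circles and squares are panobinostat replicates 1 and 2 and open diamonds replicate 4, which lay nearest 0 in 21 of 23 rises and 11 of 11 falls drawn.

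Among adhesion receptors, 7 of the 15 tested members rose, 3 fell and 5 were not called, of 27 with a row. Over all tested genes, 30.2% rose and 28.6% fell. Of the 11 adhesion receptors that also passed the filter in DMSO, 3 rose (27.3%) and 3 fell (27.3%). Among all genes that passed it in DMSO, 27.6% rose and 31.1% fell, so the share of rises in these 11 was close to that of all such genes. Of the 6 rises of 2-fold or more, 4 were in genes that passed the filter through their panobinostat level alone, and the others were in ADGRL1 and ADGRV1. The summed level of the class was lower all the same, at 821, 798 and 883 CPM in panobinostat replicates 1, 2 and 4, against 949.8, 930 and 944 CPM in DMSO replicates 1, 2 and 3.

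ADGRB2, a brain-enriched receptor of the BAI subfamily on chromosome 1 (31727117 to 31764340), had the largest log2 fold change of all tested members. It had 14.4, 10.6 and 6.3 CPM in panobinostat replicates 1, 2 and 4, against 0.507, 0.284 and 0.619 CPM in DMSO replicates 1, 2 and 3. Every panobinostat library was far above every DMSO library, and the log2 fold change was 4.47 ± 0.44 (SE, n = 3 each, edgeR adjusted p = 0.000631). The DMSO side rests on 12 counts in all, against 320 in panobinostat, a ratio of 25.2 once scaled by library totals (95% interval 14.2 to 49.3, counting error only).

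ADGRB3, of the same subfamily and a binder of C1q-like proteins, had 2.56, 3.11 and 1.95 CPM in panobinostat, against 1.01, 1.28 and 1.08 CPM in DMSO. The groups did not overlap, and the log2 fold change was 1.17 ± 0.28 (adjusted p = 0.00843), but DESeq2's Wald test gave an adjusted p of 0.0506, in a range of 0.000655 to 0.0506 over the alternatives. ADGRA2, a co-receptor that works with RECK in Wnt7 signalling, had 5.11, 3.48 and 3.15 CPM in panobinostat, against 0.591, 1.42 and 0.619 CPM in DMSO. All panobinostat values exceeded all DMSO values, with a log2 fold change of 2.27 ± 0.38 (adjusted p = 0.0026). Exons of BRF2 on the other strand overlap 23.1% of ADGRA2's, and BRF2 averaged 4.63 CPM in panobinostat and 6.34 CPM in DMSO.

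The latrophilins ADGRL1, ADGRL2 and ADGRL3, which bind teneurins and FLRT proteins across cell contacts, all rose. ADGRL1 (chromosome 19, 14147743 to 14206169) had 197, 189.8 and 135 CPM in panobinostat, against 68.1, 64.1 and 75.6 CPM in DMSO. The groups were well apart, with a log2 fold change of 1.33 ± 0.15 (adjusted p = 0.000721). ADGRL3 had 3.73, 5.86 and 3.0 CPM in panobinostat, against 0.929, 0.709 and 1.39 CPM in DMSO, a log2 fold change of 2.03 ± 0.36 (adjusted p = 0.00302), again without overlap. ADGRL2 moved less, with a log2 fold change of 0.30 ± 0.09 (adjusted p = 0.0198), and its adjusted p ranged up to 0.106 over the alternatives. Its call was lost without panobinostat replicate 1 (0.0642) or 2 (0.0689), without DMSO replicate 1 (0.0562) or 2 (0.0897), by DESeq2's Wald test (0.0559) and with no filter (0.106).

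ADGRV1, the very large receptor mutated in a form of Usher syndrome, had 35.2, 29.3 and 22.3 CPM in panobinostat, against 14.5, 13.9 and 13.9 CPM in DMSO. The lowest panobinostat library was above the highest DMSO library, and the log2 fold change was 1.05 ± 0.17 (adjusted p = 0.00232).

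The 3 adhesion receptors that fell were among the more abundant ones. ADGRE5, also known as CD97 and a receptor for CD55, had 184, 190 and 261 CPM in panobinostat, against 337, 346 and 334 CPM in DMSO. Per kilobase of exon it stood at 39.4 CPM in panobinostat and 63.0 CPM in DMSO, the second highest DMSO level per length of all members. Its log2 fold change was −0.68 ± 0.13 (adjusted p = 0.00362), and replicate 4 lay between the other panobinostat libraries and DMSO. ADGRF5, known for control of lung surfactant, had 105, 104 and 152 CPM in panobinostat, against 195, 191 and 193 CPM in DMSO (log2 fold change −0.68 ± 0.14, adjusted p = 0.00508). ADGRA3 had 61.8, 61.6 and 93.1 CPM in panobinostat, against 125, 121 and 119.9 CPM in DMSO (log2 fold change −0.76 ± 0.15, adjusted p = 0.00472). In both, as in ADGRE5, all panobinostat libraries were below all DMSO libraries and replicate 4 was the nearest to DMSO. The EGF-like part of ADGRE5 is close in sequence to that of ADGRE2, so reads there may have been split or lost.

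Of the adhesion receptors not called, ADGRD1 had a log2 fold change of −0.19 ± 0.14, ADGRE1 of 0.19 ± 0.18, ADGRG1 (GPR56, a collagen III receptor) of −0.07 ± 0.07 and ADGRG6, needed for Schwann cell myelination, of −0.01 ± 0.12. ADGRG2 had a log2 fold change of −0.71 ± 0.30 (adjusted p = 0.0758), and without panobinostat replicate 4 it was −1.08 (adjusted p = 0.00118, in a range of 0.000623 to 0.323 over the alternatives).

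**Figure D3:**
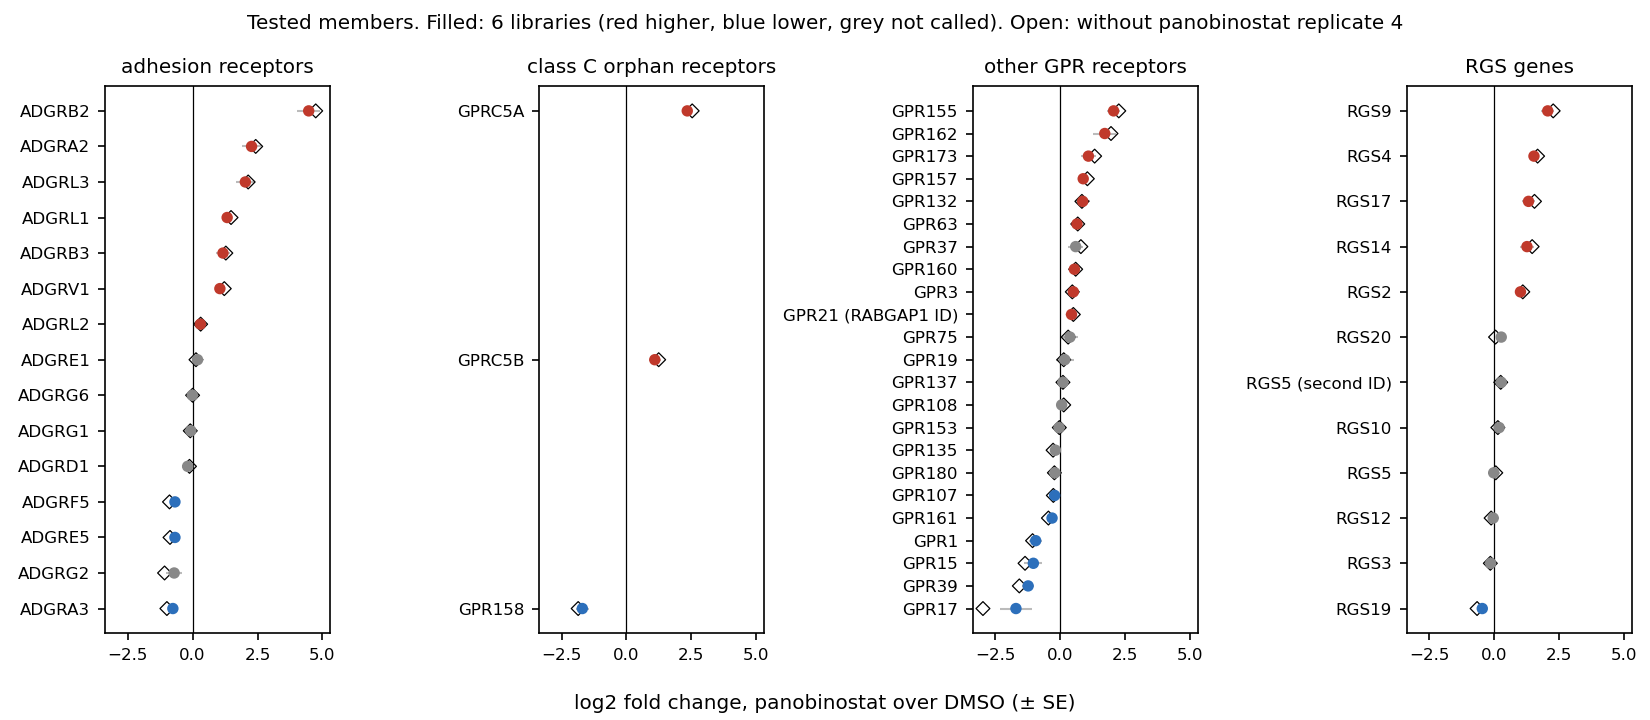
Log2 fold change, panobinostat over DMSO, of 53 tested members by class (horizontal, log2; bars are ± SE, n = 3 each). Filled points use all 6 libraries (red called higher, blue lower, grey not called), and open diamonds leave out panobinostat replicate 4, which moves most called members away from 0, GPR39 to −1.58 and GPR17 to −2.98.

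Among class C orphan receptors, which have the domain plan of the glutamate receptors, 2 of 4 tested members rose, 1 fell and 1 was not called, where 30.2% of all tested genes rose and 28.6% fell. GPRC5A, a receptor first found as a gene induced by retinoic acid (chromosome 12, 12891562 to 12917937), had 1583, 1484 and 917 CPM in panobinostat, against 279, 248 and 260.4 CPM in DMSO. It averaged 1328 ± 359 CPM in panobinostat and 263 ± 15.7 CPM in DMSO (SD, n = 3 each), a log2 fold change of 2.34 ± 0.19 (adjusted p = 0.000573) or 5.05-fold. All panobinostat libraries lay far above DMSO, with replicate 4 the lowest of them. Per kilobase of exon it was at 157 CPM in panobinostat and 31.1 CPM in DMSO.

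GPRC5A alone set the direction of the family's summed level. All 96 members together had 3354, 3209 and 2717 CPM in panobinostat, against 2123, 2049 and 2097 CPM in DMSO. Without GPRC5A the sums were 1771, 1724 and 1799.5 CPM in panobinostat, against 1843, 1801 and 1837 CPM in DMSO, so the remaining members summed to slightly less after panobinostat.

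GPRC5B, its relative, had 23.7, 29.1 and 15.3 CPM in panobinostat, against 11.5, 10.2 and 9.9 CPM in DMSO, and the groups did not overlap (log2 fold change 1.09 ± 0.22, adjusted p = 0.00486). Exons of IQCK on the other strand overlap 26.7% of GPRC5B's, and IQCK averaged 2.98 CPM in panobinostat and 2.28 CPM in DMSO. GPR158, which binds RGS7 and the Gβ5 subunit at neuronal membranes, went the other way, with 1.44, 1.65 and 2.1 CPM in panobinostat, against 5.15, 6.81 and 4.48 CPM in DMSO. Its highest panobinostat library was below its lowest DMSO library (log2 fold change −1.70 ± 0.26, adjusted p = 0.00186).

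Of 24 tested receptors with other GPR names, 9 rose (37.5%), 7 fell (29.2%) and 8 were not called, of 44 with a row. Over all tested genes, 30.2% rose and 28.6% fell. Falls of 2-fold or more included GPR17, GPR39 and GPR15, and the 3 rises of that size were in GPR155, GPR162 and GPR173.

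GPR17, related to the P2Y and cysteinyl leukotriene receptors and known from oligodendrocyte precursors, had 1.24, 0.366 and 6.15 CPM in panobinostat, against 8.19, 7.09 and 8.51 CPM in DMSO. Panobinostat replicate 4 was close to DMSO and the other panobinostat libraries were far below. The log2 fold change was −1.71 ± 0.61 (adjusted p = 0.0413), and without replicate 4 it was −2.98 (adjusted p = 4.76e-13). The call was lost without panobinostat replicate 1 (0.15) or 2 (0.0883), without DMSO replicate 1 (0.117), 2 (0.0854) or 3 (0.102), and with no filter (0.204). Over the alternatives its adjusted p ran from 2.96e-24 to 0.204.

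GPR39, a receptor that responds to zinc ions, had 5.77, 6.41 and 10.8 CPM in panobinostat, against 18.9, 17.6 and 16.1 CPM in DMSO. All panobinostat libraries were lower than all DMSO libraries, and the log2 fold change was −1.24 ± 0.23 (adjusted p = 0.00354). Exons of LYPD1 on the other strand overlap 34.8% of GPR39's, and LYPD1 averaged 6.1 CPM in panobinostat and 8.26 CPM in DMSO. GPR15, which guides lymphocytes to the gut, had 1.44, 1.28 and 2.55 CPM in panobinostat, against 4.48, 2.27 and 3.56 CPM in DMSO. Its groups overlapped, since panobinostat replicate 4 exceeded DMSO replicate 2 (log2 fold change −1.04 ± 0.35, adjusted p = 0.0333). The call was lost without panobinostat replicate 1 (0.143) or 2 (0.0952), without DMSO replicate 1 (0.163) or 3 (0.0791), and by DESeq2's Wald test (0.069), in a range of 2.5e-05 to 0.163.

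GPR155, a lysosomal membrane protein that senses cholesterol, had 20.8, 21.4 and 12.1 CPM in panobinostat, against 4.14, 4.68 and 4.48 CPM in DMSO. Every panobinostat library was well above DMSO (log2 fold change 2.05 ± 0.24, adjusted p = 0.00086). GPR162, an orphan of the brain, had 5.63, 6.6 and 2.4 CPM in panobinostat, against 2.11, 0.851 and 1.24 CPM in DMSO, with replicate 4 just above the highest DMSO library (log2 fold change 1.71 ± 0.44, adjusted p = 0.0111). GPR162 passed the filter through its panobinostat level alone. GPR173, an orphan enriched in brain, had 14.7, 13 and 8.25 CPM in panobinostat, against 4.14, 5.96 and 7.73 CPM in DMSO. Its lowest panobinostat value was again only just above its highest DMSO value (log2 fold change 1.08 ± 0.28, adjusted p = 0.0124), and the call was lost without panobinostat replicate 1 (0.0587) or DMSO replicate 1 (0.058), in a range of 5.02e-18 to 0.0587.

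The smaller rises were in GPR157, GPR132, GPR63, GPR160, GPR3 and the identifier the deposited table names GPR21. GPR157 had a log2 fold change of 0.88 ± 0.18 (adjusted p = 0.00472), GPR63 of 0.64 ± 0.12 (adjusted p = 0.00369) and GPR160 of 0.54 ± 0.12 (adjusted p = 0.0058). GPR132, a receptor linked to lysolipids, had 0.86 ± 0.27 (adjusted p = 0.0236). Its call was lost without panobinostat replicate 1 (0.0618) or 2 (0.063), without DMSO replicate 2 (0.0758) or 3 (0.0814) and by DESeq2's Wald test (0.0575), in a range of 0.00345 to 0.0814. GPR3, which activates Gs without an added ligand, had 0.50 ± 0.18 (adjusted p = 0.0448). Its call was lost without panobinostat replicate 1 (0.145), without DMSO replicate 1 (0.103), 2 (0.0625) or 3 (0.156), by DESeq2's Wald test (0.151) and with no filter (0.135). Its adjusted p ran from 0.0185 to 0.156 over the alternatives. The identifier named GPR21 belongs to RABGAP1 in the reference annotation, a gene that overlaps GPR21, so its log2 fold change of 0.43 ± 0.09 (adjusted p = 0.00541) is not a value for GPR21. Without it, 22 of 54 tested members rose and 12 fell.

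The smaller falls were in GPR1, GPR161 and GPR107. GPR1, now called CMKLR2 and a receptor for chemerin, had a log2 fold change of −0.95 ± 0.26 (adjusted p = 0.0144), and its call was lost without DMSO replicate 1 (0.0704, in a range of 1.74e-08 to 0.0704). GPR161, which holds Hedgehog signalling down at the primary cilium, had −0.32 ± 0.12 (adjusted p = 0.0459). Its call was lost without panobinostat replicate 1 (0.159) or 2 (0.132), without DMSO replicate 1 (0.126), 2 (0.128) or 3 (0.0768), by DESeq2's Wald test (0.0599) and with library size only (0.061), in a range of 1.82e-06 to 0.159. GPR107, a Golgi protein, had −0.22 ± 0.08 (adjusted p = 0.0341). Its call was lost without panobinostat replicate 1 (0.0757) or 2 (0.116), without DMSO replicate 1 (0.121), 2 (0.0553) or 3 (0.0792) and with library size only (0.0525), in a range of 4.87e-08 to 0.121.

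GPR receptors that were not called had log2 fold changes of 0.05 ± 0.10 for GPR108, the Golgi relative of GPR107, −0.19 ± 0.20 for GPR135, 0.10 ± 0.10 for GPR137, −0.05 ± 0.11 for GPR153, 0.17 ± 0.34 for GPR19 and 0.37 ± 0.31 for GPR75. GPR37, a receptor for prosaposin, had 0.59 ± 0.29 (adjusted p = 0.115), and 0.79 without panobinostat replicate 4 (adjusted p = 0.00207, in a range of 0.00207 to 0.316). GPR180 had −0.21 ± 0.09 (adjusted p = 0.0815), and −0.23 without that library (adjusted p = 0.00925, in a range of 0.00925 to 0.232). Names that add a letter fall just outside the naming rule. Of these, GPR137B had a log2 fold change of 0.32 ± 0.14, GPR137C of 0.62 ± 0.15, GPR89A of −0.24 ± 0.27 and GPR89B of 0.80 ± 0.21, the last pair being near-identical copies whose reads cannot be assigned with certainty.

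**Figure D4:**
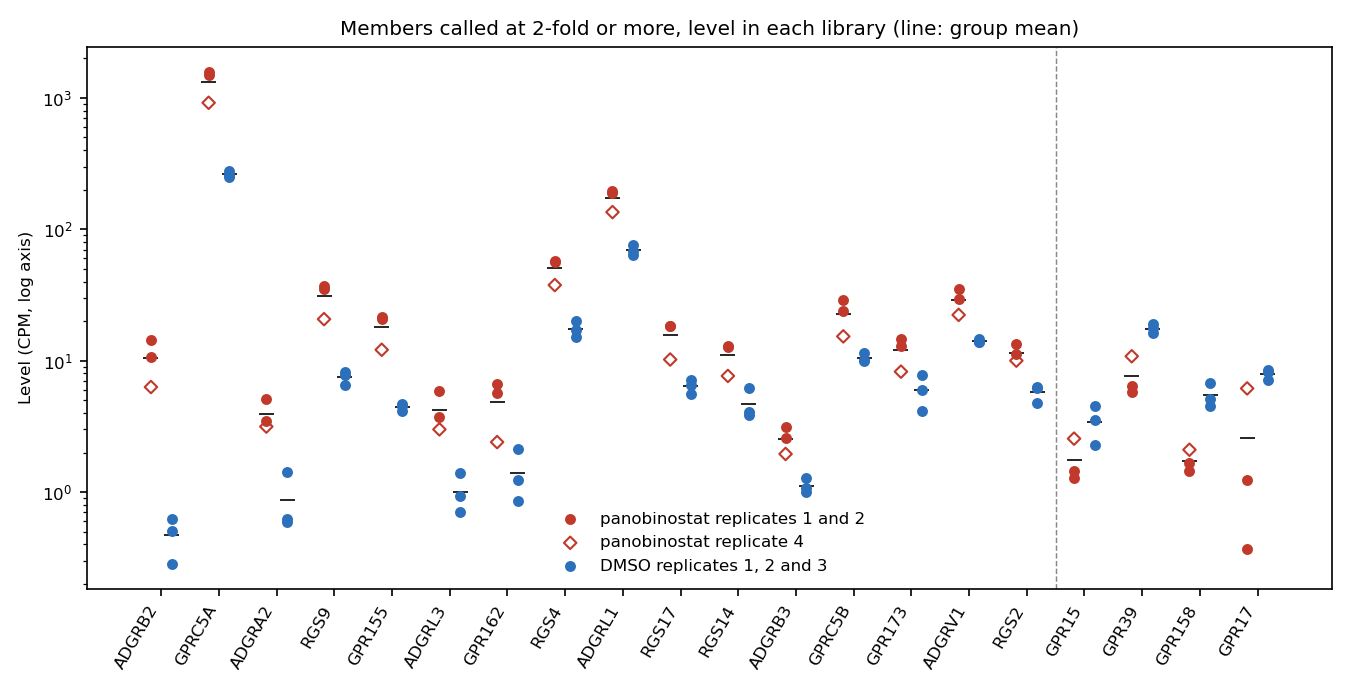
Level in every library of 20 members called at 2-fold or more (horizontal, members; vertical, CPM, log axis). Red marks are panobinostat, with replicate 4 as an open diamond, blue marks are DMSO, short lines are group means and the dashed line separates rises from falls. Replicate 4 of GPR17 lies at 6.15 CPM, above 1.24 and 0.366 CPM in the other panobinostat libraries and just below 7.09 CPM, the lowest DMSO library.

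Among RGS genes, 5 of 12 tested members rose (41.7%), 1 fell (8.33%) and 6 were not called, of 19 with a row. Over all tested genes, 30.2% rose and 28.6% fell. All 5 rises were of 2-fold or more. The summed RGS level was 333, 339 and 303 CPM in panobinostat, against 239.6, 239 and 245 CPM in DMSO, higher in every panobinostat library than in any DMSO library.

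RGS9, of the R7 subfamily that works bound to Gβ5 in photoreceptors and striatum, rose most (chromosome 17, 65137370 to 65227703). It had 35.1, 36.8 and 20.7 CPM in panobinostat, against 6.5, 7.8 and 8.2 CPM in DMSO, with no overlap between groups (log2 fold change 2.06 ± 0.24, adjusted p = 0.000778). RGS4, an R4 member acting on Gi and Gq subunits (chromosome 1, 163068871 to 163076802), had 56.7, 57.3 and 37.6 CPM in panobinostat, against 20, 15.2 and 17.0 CPM in DMSO. Its groups were also apart (log2 fold change 1.53 ± 0.19, adjusted p = 0.00092). RGS2, the Gq-selective R4 member, had 13.4, 11.2 and 10.0 CPM in panobinostat, against 6.25, 6.24 and 4.79 CPM in DMSO (log2 fold change 1.01 ± 0.18, adjusted p = 0.00312), and all panobinostat libraries exceeded all DMSO libraries.

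RGS17, of the RZ subfamily, had 18.4, 18.5 and 10.2 CPM in panobinostat, against 5.57, 6.53 and 7.11 CPM in DMSO (log2 fold change 1.32 ± 0.25, adjusted p = 0.00363). RGS14, an R12 member that also holds a GoLoco motif for inactive Gi subunits, had 12.9, 12.6 and 7.65 CPM in panobinostat, against 4.05, 6.24 and 3.87 CPM in DMSO (log2 fold change 1.26 ± 0.27, adjusted p = 0.00544). In both genes the lowest panobinostat library, replicate 4, stayed above the highest DMSO library.

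RGS19, an RZ relative of RGS17 that was first found as a Gαi partner, moved the other way. It had 12.9, 12.6 and 18.3 CPM in panobinostat, against 20.7, 17.7 and 21.7 CPM in DMSO, and replicate 4 overlapped DMSO replicate 2 (log2 fold change −0.46 ± 0.17, adjusted p = 0.0429). Its call was lost without panobinostat replicate 1 (0.151) or 2 (0.124), without DMSO replicate 1 (0.127), 2 (0.0558) or 3 (0.12) and with library size only (0.0526), in a range of 2.41e-06 to 0.151. The third RZ member, RGS20, was not called at 0.27 ± 0.20.

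RGS10, a short R12 protein known from microglia, had the highest DMSO level per length of all members, at 76.0 CPM per kilobase of exon in panobinostat and 66.6 in DMSO. It had 90.3, 94.7 and 100.5 CPM in panobinostat, against 78.6, 88.4 and 83.0 CPM in DMSO. The libraries did not overlap, but the log2 fold change of 0.19 ± 0.08 missed the threshold (adjusted p = 0.0648), and it was 0.14 without replicate 4 (adjusted p = 0.0271). Library size only (0.0406) and the replicate number as a block (0.00718) also gave a call, in a range of 0.00718 to 0.377. RGS3 had −0.14 ± 0.08 (adjusted p = 0.185), and −0.15 without replicate 4 (adjusted p = 0.0467, in a range of 0.0467 to 0.378). RGS12 had −0.04 ± 0.10, and the 2 identifiers named RGS5, which share exons, had −0.02 ± 0.23 and 0.27 ± 0.26.

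The other 41 members were near silent and were not tested. Together they held 444 counts in panobinostat and 221 in DMSO, of 27118192 and 25624656 counts in all. RGS13 alone had 0 counts, 22 members had under 10, and 19 had at least 10 over the 6 libraries. The members under 10 summed to 48 counts in panobinostat and 15 in DMSO. A total of 10 of the 41 had 0 counts in DMSO and 4 had 0 in panobinostat.

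Ratios of summed counts, scaled by library totals, had 95% intervals (counting error only) above 1 in 5 silent members and below 1 in 0. The share of all untested genes with such intervals was not computed. Among all tested genes under 2 CPM in DMSO, 58.9% rose and 1.06% fell, so neither this count nor the summed counts above are read as particular to the family. RGS16, an R4 relative of RGS4, had 57, 10 and 8 counts in panobinostat replicates 1, 2 and 4, against 3, 0 and 0 in DMSO, a ratio of 23.6 (7.78 to 117). GPR143, the melanosome receptor mutated in ocular albinism, had 27, 10 and 2 counts in panobinostat, against 3, 0 and 1 in DMSO, a ratio of 9.21 (3.32 to 35.5). RGS7, the R7 partner of GPR158, had 40 counts in panobinostat and 16 in DMSO, a ratio of 2.36 (1.29 to 4.52). GPR35 had 22 counts in panobinostat and 4 in DMSO, a ratio of 5.2 (1.77 to 20.7), and the proton sensor GPR4 had 14 in panobinostat and 4 in DMSO, a ratio of 3.31 (1.04 to 13.8).

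Without panobinostat replicate 4 the filter let 4 of these genes through. RGS16, GPR143 and RGS7 passed it through their panobinostat level alone, and the library left out was the one with the smallest changes. Their adjusted p-values in that fit are therefore no separate support for a rise. RGS16 then had a log2 fold change of 4.58 ± 0.56 (adjusted p = 7.57e-10), GPR143 of 3.39 ± 0.58 (adjusted p = 1.25e-06), RGS7 of 1.27 ± 0.43 (adjusted p = 0.00748) and GPR83 of 0.57 ± 0.40 (adjusted p = 0.194).

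For the other silent members with 10 counts or more the intervals held 1. Summed counts were 38 in panobinostat and 27 in DMSO for GPR83, 26 in panobinostat and 13 in DMSO for ADGRE2, and 26 in panobinostat and 12 in DMSO for ADGRF1. ADGRG5 had 19 in panobinostat and 11 in DMSO, GPR61 had 10 in panobinostat and 5 in DMSO, and RGS6 and GPRC5D each had 8 in panobinostat and 3 in DMSO. Such counts are too few to give a direction. GPR83 shows this, as its mean level was 1.14 CPM in panobinostat and 1.17 CPM in DMSO. GPR85 had 16 counts in panobinostat and 22 in DMSO, ADGRF3 had 15 in panobinostat and 24 in DMSO, and GPR146 had 10 in panobinostat and 14 in DMSO. RGS22 had 6 in panobinostat and 13 in DMSO, GPRC5C had 3 in panobinostat and 8 in DMSO, GPR55 had 12 in each group, and GPR78 had 9 in panobinostat and 8 in DMSO.

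The G protein cycle that these receptors drive was followed in 93 listed genes, of which 88 had a row and 63 were tested. Of the 63, 22 rose, 20 fell and 21 were not called. That is 34.9% higher and 31.7% lower, against 30.2% and 28.6% of all tested genes, the shares to set beside each list below. By 2-fold or more, 7 rose and 1 fell, where 10.9% and 4.66% of all tested genes did. The median log2 fold change was 0.03.

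Of 10 tested α subunits, 5 rose (50.0%) and 4 fell (40.0%). GNAO1, the Go subunit of neurons, had a log2 fold change of 2.03 ± 0.33, and the Gi subunits GNAI1 and GNAI2 had 0.66 ± 0.12 and 0.61 ± 0.09. The Gq family was split. GNAQ and GNA15 fell by 0.54 and 0.50 on the log2 scale, while GNA11, named here after its values were seen, had 0.36 ± 0.08 (adjusted p = 0.00729). GNA13, of another family, fell by 0.31, a call lost without DMSO replicate 2 (adjusted p = 0.0538, range over alternatives 2.68e-16 to 0.0538). Among 8 tested β and γ subunits, 2 rose and 4 fell. GNG7 averaged 18.6 ± 6.34 CPM in panobinostat and 1.93 ± 0.414 CPM in DMSO (SD, n = 3 each), a log2 fold change of 3.28 ± 0.33. GNB5, the β subunit that RGS9 binds, had 0.47 ± 0.14, and its call was lost without panobinostat replicate 1 (adjusted p = 0.0931) or 2 (0.0698) or DMSO replicate 1 (0.0981), 2 (0.0564) or 3 (0.0521), with a range of 2.37e-10 to 0.0981. GNB4, GNG11 and GNB1 had log2 fold changes of −0.62 ± 0.13, −0.50 ± 0.12 and −0.39 ± 0.07.

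Receptor kinases and arrestins switch active receptors off. Of 11 tested, 6 rose (54.5%), 4 of them by 2-fold or more, and 2 fell (18.2%). ARRDC4, an arrestin-domain protein, had a log2 fold change of 1.59 ± 0.18, and the kinases GRK5 and GRK4 had 1.24 ± 0.16 and 1.22 ± 0.14. The kinase GRK2 had −0.47 ± 0.07. The β-arrestins moved in opposite directions, with −0.46 ± 0.10 for ARRB1 and 1.16 ± 0.18 (adjusted p = 0.00178) for ARRB2, which was named after its values were seen.

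Another list held effectors of α subunits, other proteins with RGS-like domains, chaperones of α subunits and GoLoco proteins. Of its 16 tested genes, 5 rose (31.2%) and 3 fell (18.8%). PLCB3, a phospholipase C activated by Gq, had 0.89 ± 0.13 and the anchoring protein AKAP13 had 0.82 ± 0.09. AXIN2, a Wnt pathway scaffold with an RGS domain, had 0.66 ± 0.25, a call near the threshold (adjusted p = 0.0497) that was lost with DESeq2 size factors (0.0536), by DESeq2's Wald test (0.097) and without panobinostat replicate 1 (0.216) or 2 (0.135) or DMSO replicate 1 (0.141), 2 (0.102) or 3 (0.134). Its range was 5.05e-06 to 0.216. SNX13 had −0.54 ± 0.10 and ARHGEF1, an effector of Gα13, had −0.46 ± 0.12. PLCB2 had −0.55 ± 0.16, a call lost without DMSO replicate 1 (adjusted p = 0.0504) or 2 (0.0539) and by DESeq2's Wald test (0.0698), with a range of 0.0149 to 0.0698.

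Of 18 tested genes of cAMP synthesis and breakdown, 4 rose (22.2%) and 7 fell (38.9%). The protein kinase A subunits PRKAR2B and PRKACA had log2 fold changes of 1.23 ± 0.22 and 0.95 ± 0.13, and the cyclase ADCY9 had 0.51 ± 0.10. The phosphodiesterase PDE4D had −0.88 ± 0.18. PDE7B, another phosphodiesterase, had −1.35 ± 0.36, a call lost without panobinostat replicate 1 (adjusted p = 0.0631) or DMSO replicate 3 (0.0507), with a range of 3.23e-09 to 0.0631. The cyclase ADCY7 had −0.72 ± 0.20, a call lost without panobinostat replicate 1 (adjusted p = 0.0652) or DMSO replicate 2 (0.0621) or 3 (0.0541), with a range of 1.27e-08 to 0.0652.

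**Figure D5:**
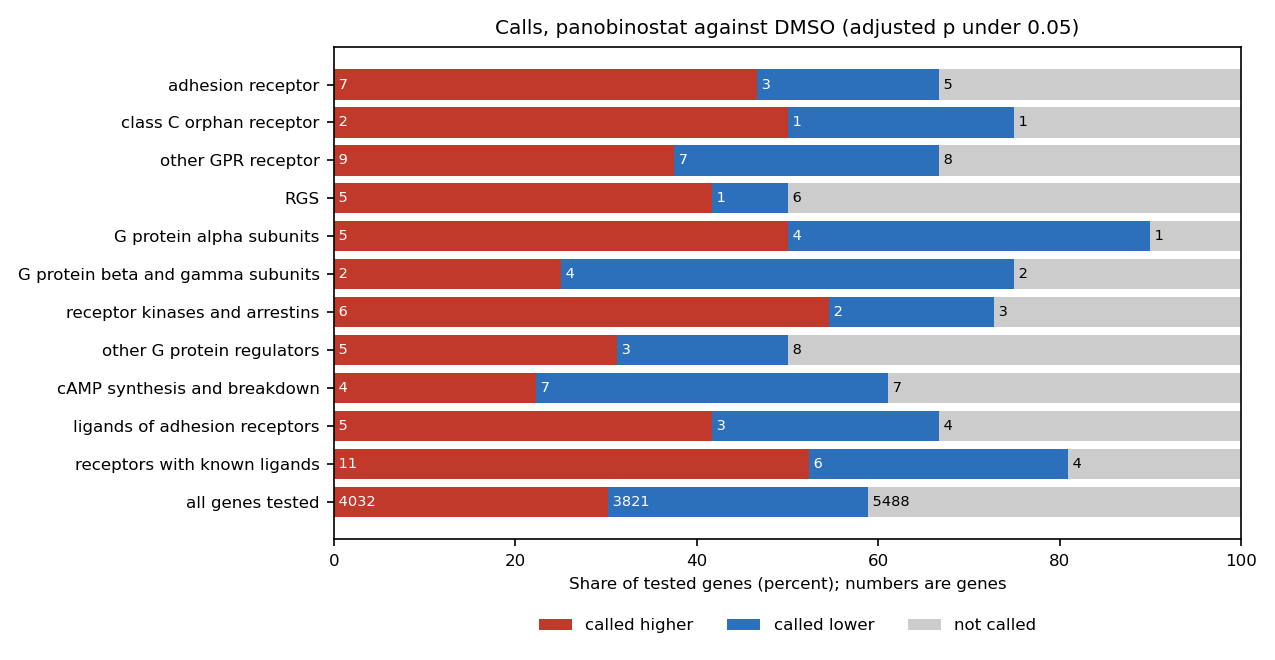
Share of tested genes called higher (red), lower (blue) or not called (grey) in panobinostat against DMSO (horizontal, percent), with the number of genes in each bar. The top 4 bars are the member classes, the lowest bar is all 13341 genes tested, and the bars between are listed partner genes. RGS genes show 5 rises and 1 fall, and all genes 4032 rises and 3821 falls.

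Known binding partners of the adhesion receptors moved in both directions. Of 12 tested, 5 rose and 3 fell. TENM1, a teneurin bound by the latrophilins, averaged 63.9 ± 19.8 CPM in panobinostat and 9.93 ± 0.622 CPM in DMSO (SD, n = 3 each), a log2 fold change of 2.69 ± 0.24. C1QL1, of the C1q-like proteins that bind ADGRB3, had 2.26 ± 0.31, and RECK, the partner of ADGRA2, had 1.15 ± 0.15. FLRT2, another latrophilin ligand, had −0.63 ± 0.16, and the prion protein PRNP, a ligand of ADGRG6, had −0.45 ± 0.08. WNT7B, the Wnt that ADGRA2 and RECK relay, had −0.58 ± 0.17, a call lost without panobinostat replicate 1 (adjusted p = 0.0733) or 2 (0.0617) or DMSO replicate 2 (0.0609) or 3 (0.0611), with a range of 1.97e-11 to 0.0733.

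Of 3 tested ligands or ligand enzymes of other receptors here, PSAP, the prosaposin bound by GPR37, had a log2 fold change of 0.45 ± 0.09. SHH, the Hedgehog ligand opposed by GPR161, had 2.17 ± 0.34, and HSD3B7, an enzyme of oxysterol breakdown, was not called at −0.03 ± 0.29. The flamingo receptors are adhesion receptors with cadherin repeats that carry CELSR names. CELSR2 averaged 68.4 ± 19.0 CPM in panobinostat and 12.5 ± 1.61 CPM in DMSO (SD, n = 3 each; log2 fold change 2.45 ± 0.22), CELSR1 had −0.46 ± 0.10 and CELSR3 was not called at −0.19 ± 0.12.

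Of 21 tested receptors with long-known ligands, 11 rose (52.4%) and 6 fell (28.6%), against 30.2% and 28.6% of all tested genes. Of the 18 that also passed the filter in DMSO, 9 rose and 6 fell. The prostaglandin receptor PTGER2 had a log2 fold change of 2.39 ± 0.32, the protease-activated receptor F2RL2 had 1.58 ± 0.21 and the adrenergic receptor ADRB1 had 1.5 ± 0.29. F2RL3, another protease-activated receptor, had −2.20 ± 0.49, and −3.19 without panobinostat replicate 4. F2RL1, of the same family, had −1.11 ± 0.23 and the lysophosphatidic acid receptor LPAR1 had −1.08 ± 0.24, both lost with no filter. Their adjusted p was then 0.076 for F2RL1 and 0.0601 for LPAR1, the highest over their alternatives, against 0.00498 and 0.00649 with the filter.

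Promoters were found for 69 of the members in the RefSeq table. GGGCGG occurred on either strand in 56.5% of these windows and in 42.3% of all 27305 promoter windows of the same length. CCAAT occurred in 20 of the 69 member windows and in 33.0% of all windows, TATAAA in 10.1% of member windows and 11.1% of all, and the cAMP response element TGACGTCA in 1.45% of member windows and 1.77% of all. Among members that rose, 10 of 17 windows held GGGCGG, against 7 of 10 among those that fell, 11 of 14 among those not called and 11 of 28 among those not tested. The median share of G and C was 68.4% in members that rose, 64.0% in those that fell, 67.4% in those not called and 48.4% in those not tested, against 58.0% over all promoters.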

How the data were processed

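RNA of MDA-MB-231 cells was sequenced in 6 libraries, made with a stranded mRNA kit, on an Illumina HiSeq, per the labels' protocols and the design text. The values are whole-number read counts per gene without normalisation, as the authors deposited them. The submitters' processing notes name the build GRCh38.p14 and FastQC. For the aligner, the annotation and the strandedness of counting, the sources used here give nothing. The table's symbols are tied to one identifier column and its counts to another, and the pair differs on 29990 lines, so symbols were matched by identifier. Counts on 30051 identifiers entered library totals.

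Counts were tested with edgeR 4.0.16 in R 4.3.3 (robust quasi-likelihood fit with treatment as sole term and TMM scaling). edgeR's filterByExpr kept 13341 genes with at least 1.456 CPM in 3 libraries and removed 16710. A call needed an adjusted p under 0.05 (Benjamini-Hochberg over all tested genes), and 8519 had an unadjusted p under 0.05. CPM are counts over the library total times its TMM factor. edgeR's biological coefficient of variation came to 0.112, or 0.0283 when panobinostat replicate 4 was left out. An exact test of 3 against 3 libraries cannot go below p = 0.1, so none was used. Summed counts of silent genes were compared by an exact interval that covers counting error only. No duplicate library was found. The labels do not say whether replicates were separate thaws or dishes, so p-values measure the spread between these libraries.

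The members, the 12 gene lists and the tests were chosen with earlier results of these data known. Tested members are named, except a few that are not reported here and stay in the counts. Values per library are given for called members of at least 2-fold and 1 CPM and for the members among the 5 highest per length in DMSO. Outside these rules, CPM per library are also given for ADGRA3 and RGS19. Up to 3 list genes are named per direction. Coordinates and promoters are RefSeq's on GRCh38.p14, exon lengths GENCODE's. The fit was tested on simulated data. Alternatives were DESeq2 1.42.0 size factors, library size only, no filter, DESeq2's Wald test, the replicate number as a block and each library left out. Replicate numbers 1 and 2 occur in both groups without a label that ties them, so the main fit has no block.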

Additional observations from a re-analysis of the deposited data

How the results depend on the processing

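All 35 calls of members kept their direction under every alternative, and 23 stayed called under each of them. The other 12 lost the call under at least 1 and those reported are given with their values above. Against 23 members higher and 12 lower, DESeq2 size factors gave 23 and 12 and library size only 24 and 9. With no filter the numbers were 24 and 10, and with DESeq2's Wald test 21 and 10. Totals under an alternative are over all members with a row, including any not tested in the main fit. Gains can therefore offset lost calls in them. Leaving out 1 library gave 19 to 28 higher and 6 to 15 lower, 13 to 20 higher and 3 to 7 lower by 2-fold or more (16 and 5 in all libraries), and 19 to 26 higher and 14 to 26 lower among G protein cycle genes. Over all genes it gave 3106 to 5171 higher and 2624 to 5079 lower.

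The replicate numbers did not pair the libraries by any label, and the difference of replicates 1 and 2 in panobinostat had a correlation of 0.0671 across genes with that in DMSO. With the replicate number as a block, 24 members rose and 14 fell, 8 of them by 2-fold or more, GPR17 had −2.97, and the call of GPR3 was lost (adjusted p = 0.068). Panobinostat replicate 4 and DMSO replicate 3 have no partner, so this fit takes both out of the contrast.

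Some log2 fold changes that were not called changed sign. With library size only, RGS5 had 0.01, ADGRG6 0.02 and HSD3B7 0.00, with no filter GPR108 had −0.01, and with the block GPR19 had −0.00. Leaving out 1 library gave −0.12 to 0.03 for RGS12, −0.27 to 0.10 for RGS5, −0.08 to 0.09 for ADGRG6, −0.03 to 0.13 for GPR108, −0.11 to 0.03 for GPR153, −0.06 to 0.61 for GPR19 and −0.27 to 0.24 for HSD3B7. The cause was not tested. Depth limits the 41 silent members, for which a difference was mostly not detectable.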
